A study of Mus musculus with 20 samples.

Results

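The genes described here encode the proteasome, the protease complex that degrades ubiquitin-tagged proteins, in the livers of mice on a high-fat or a low-fat diet. A gene was a member if a probe set carried exactly 1 gene symbol and that symbol began with Psm, followed by a letter from a to g and a number. Each gene was read from its probe set with the highest mean score over the 20 arrays, and 47 of the 18193 genes on the array were members. The high-fat group was 10 male C57BL/6J mice, an inbred strain, given a diet with 45% of its energy as fat for 4 weeks. The low-fat group was 10 male C57BL/6J mice given 10% of energy as fat for the same 4 weeks. All mice had been bought at 3 weeks of age, had first eaten the low-fat diet, were labelled as 8 weeks old and were killed after 16 h without food. Whole liver was used, so that in these bulk samples fewer cells of a type and less RNA per cell cannot be told apart. The comparison asks how high-fat feeding changed the liver's transcripts, here those of the proteasome.

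The proteasome is built of a barrel-shaped core and a regulatory cap. The core has rings of alpha subunits, which form the gate, around rings of beta subunits, of which Psmb5, Psmb6 and Psmb7 carry the constitutive proteolytic sites. In cells exposed to interferon-gamma, Psmb8, Psmb9 and Psmb10 take the places of Psmb5, Psmb6 and Psmb7 and favour peptides for display on class I molecules. The cap has a base, whose ATPases unfold substrates, and a lid, which removes ubiquitin. Assembly chaperones of the Psmg family help the core to form, and activators of the Psme family can dock in place of the cap. In the liver the proteasome degrades both regulatory and damaged proteins, including those sent back from the endoplasmic reticulum. Its subunit genes are known to be induced together by the transcription factor Nfe2l1 when proteasome activity falls.

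Promoters are shown for 4 members on which the results below turn: Psma4, which rose on the high-fat diet; Psmb5, the constitutive chymotrypsin-like subunit; Psmb9, an immune subunit; and Psme1, the member with the lowest difference between diets. RefSeq (GRCm38.p6) gave a promoter for 39 of the 47 members, from 250 bases before to 50 bases after a transcription start. The 8 others are named only. Capitals mark matches on either strand to 3 motifs: TGACNNNGC, the core of the antioxidant response element bound by Nfe2l1 and Nfe2l2; CCAAT, bound by NF-Y; and the interferon-stimulated response element, written as GAAA, any 2 bases and GAAA again, which was added after the values had been seen.
Psma4 (chr9:54950609-54950908, + strand): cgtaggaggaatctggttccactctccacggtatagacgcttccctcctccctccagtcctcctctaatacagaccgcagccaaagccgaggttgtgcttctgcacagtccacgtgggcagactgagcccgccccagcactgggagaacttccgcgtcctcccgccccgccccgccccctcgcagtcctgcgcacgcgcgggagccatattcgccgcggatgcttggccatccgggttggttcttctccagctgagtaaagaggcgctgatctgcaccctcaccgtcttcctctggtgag
Psmb5 (chr14:54617946-54618245, - strand): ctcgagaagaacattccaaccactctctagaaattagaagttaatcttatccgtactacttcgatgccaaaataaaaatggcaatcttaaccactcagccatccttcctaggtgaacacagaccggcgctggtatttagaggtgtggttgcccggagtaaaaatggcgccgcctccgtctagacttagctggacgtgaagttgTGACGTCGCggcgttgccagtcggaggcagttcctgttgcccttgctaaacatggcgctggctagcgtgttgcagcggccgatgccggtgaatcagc
Psmb9 (chr17:34187281-34187580, - strand): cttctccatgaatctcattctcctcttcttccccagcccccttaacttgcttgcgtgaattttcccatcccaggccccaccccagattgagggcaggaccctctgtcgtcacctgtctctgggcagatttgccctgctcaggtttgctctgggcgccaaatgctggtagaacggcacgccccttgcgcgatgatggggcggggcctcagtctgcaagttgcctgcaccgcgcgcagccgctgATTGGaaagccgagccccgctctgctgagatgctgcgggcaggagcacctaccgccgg
Psme1 (chr14:55578244-55578543, + strand): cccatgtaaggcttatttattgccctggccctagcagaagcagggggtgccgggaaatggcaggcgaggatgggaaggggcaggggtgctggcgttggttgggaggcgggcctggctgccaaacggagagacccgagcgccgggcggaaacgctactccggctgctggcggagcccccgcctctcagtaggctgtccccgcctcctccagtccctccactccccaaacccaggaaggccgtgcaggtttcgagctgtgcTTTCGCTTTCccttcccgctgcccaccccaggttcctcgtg

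The Psma4 window held none of the 3 motifs, and that of Psmb5 held TGACGTCGC on the coding strand, 47 bases before the start. The Psmb9 window held 1 CCAAT box, read here as ATTGG, and shared 275 bases with the promoter of Tap1, a peptide transporter gene transcribed the other way. The Psme1 window held 1 interferon-stimulated element, read here as TTTCGCTTTC, 9 bases after the start. Over the members, TGACNNNGC was found in 6 of 39 genes (15.4%), against 13.99% of the 27025 genes with a promoter. CCAAT was found in 14 of 39 members (35.9%) and in 41.1% of all genes. The interferon-stimulated element was found in 5 of 39 members (12.8%) and in 3.99% of all genes, the members being Psmb3, Psmd4, Psmd9, Psme1 and Psmg4. These are matches of letters only, and 0 of the 3 immune subunits held TGACNNNGC or the interferon-stimulated element in this window. The median GC content was 57.3% in member promoters and 52.7% in all promoters.

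The deposited values are scores that run like log2 intensities, from 5.18 to 15.001, but differ between arrays by far less than log2 intensities would, and by an amount that varies between probe sets. The SD within diets ranged from 7.12e-06 to 0.000447 among the members. Sizes are therefore standardised differences, in which the high-fat mean less the low-fat mean is expressed in units of the pooled SD within diets and given a 95% interval. Values of single mice are given on the same scale, as distances from the low-fat mean of that gene in units of the SD within diets. A gene was called changed at a limma adjusted p under 0.05 over all genes. Each mouse had its own array, and 0 pairs of arrays held identical values. Array medians were 6.5672 in the high-fat and 6.5671 in the low-fat mice on average. All 10 high-fat arrays had a median above the middle of the low-fat array medians. All 24 poly-A spike-in control probe sets, added to the RNA before labelling, were below the low-fat mean, 10 of them at an unadjusted p under 0.05 and 0 at the adjusted threshold. Low-fat replicate 1 was low and high-fat replicate 2 was low over many members, so results are also given without them. Low-fat replicate 1 was the lowest low-fat mouse for 25 of the 47 members and low-fat replicate 9 for 8. Replicate 9 was the lowest mouse of the alpha ring (class mean -2.18, against -1.51 in replicate 1), with -3.004 for Psma3 and -3.07 for Psma5. Without low-fat replicate 9, 2 members rose, 37 lay above the low-fat mean and the median was 0.59. Of all genes 3.04% were then called, 53.0% lay above the low-fat mean and the median was 0.05.

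Of the 47 proteasome genes, Psma4 and Psmg2 rose on the high-fat diet and 0 fell. Over all genes 1.71% rose and 1.78% fell (3.49% in all). As deposited, 37 of the 47 members lay above the low-fat mean, against 52.5% of all genes, with a median standardised difference of 0.65 against 0.04 for all genes; after quantile normalisation 12 of the 41 members still measured lay above it, and after centring arrays on their medians 4 of 47. At an unadjusted p under 0.05, 15 members were higher and 1 was lower, while over all genes 8.94% were higher and 8.01% lower. The members were well expressed, with 45 of 47 in the upper part of genes ranked by mean score, where 52.1% of genes lay above the low-fat mean. The members were chosen with these data known, so the counts describe them and are not a test of the group. Without low-fat replicate 1 and high-fat replicate 2, 3 members rose (Psma4, Psmc2 and Psmg2), 1 fell (Psme1), 38 lay above the low-fat mean and the median was 0.78; of all genes 3.29% were then called, 51.0% lay above the low-fat mean and the median was 0.016.

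**Figure D1:**
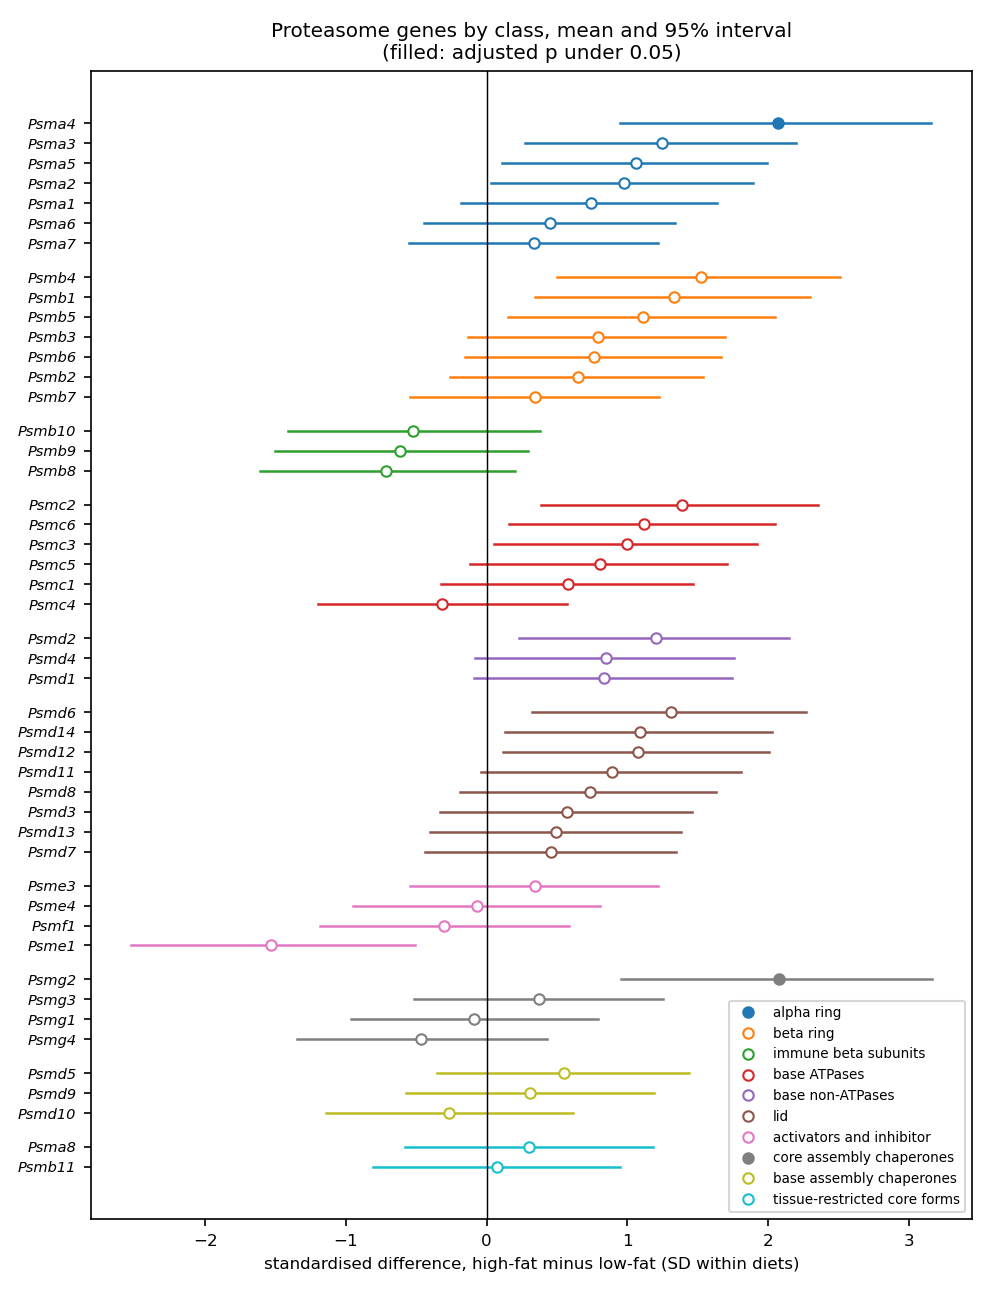
Standardised difference (high-fat minus low-fat, in SD within diets) of each of the 47 proteasome genes on the horizontal axis, with its 95% interval, grouped by class down the page. Filled points (Psma4 and Psmg2) passed an adjusted p of 0.05. As deposited, 30 of the 31 constitutive core, base and lid genes lie right of 0 and the 3 immune subunits left of it; of all members, 12 of 41 lay right of 0 under quantile normalisation and 4 of 47 under median centring.

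Each of the 7 alpha ring genes lay above the low-fat mean as deposited (median 0.98), while quantile normalisation left 2 of 5 there and median centring 1 of 7. Psma4, whose yeast counterpart has the tail that closes the gate of the core, is on chromosome 9 (54950781 to 54958034). Its values in high-fat mice had a lowest of 0.90, a median of 1.91 and a highest of 3.30, and those in low-fat mice a lowest of -2.63, a median of 0.15 and a highest of 1.53. Every low-fat mouse was exceeded by 9 of the high-fat mice, and the groups overlapped only at the lowest high-fat value. When each high-fat mouse was set against each low-fat mouse, the high-fat one was higher in 98% of 100 pairings. Psma4 had a standardised difference of 2.07 (95% interval 0.95 to 3.16, limma adjusted p = 0.0119). In the deposited score this was a difference of 3.04e-05. Omitting any 1 of the 20 arrays kept its call (highest adjusted p = 0.0246). The call was lost after quantile normalisation (0.20, adjusted p = 0.808), and the sign turned after median centring (-0.77, adjusted p = 0.114). That turn was fixed by the deposited difference, which was below the 7.33e-05 between the diets' array medians. Psma3 (1.25, adjusted p = 0.132), Psma5 (1.06) and Psma2 (0.98) had intervals above 0 but did not pass. Psma7 (0.34, 95% interval -0.55 to 1.22) was the lowest of the ring by the probe set used, with a mean score of 10.03. Its other probe set, with a mean of 9.96, stood at 1.05 (0.09 to 1.97, limma adjusted p = 0.251 over all probe sets).

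The 7 constitutive beta ring genes also lay above the low-fat mean as deposited (median 0.79) and 0 passed; quantile normalisation left 2 of 5 above it and median centring 0 of 7. Psmb4, a structural subunit without a proteolytic site, had values in high-fat mice from 0.32 to 2.51 with a median of 1.45, and in low-fat mice from -2.42 to 2.24 with a median of 0.11. Every high-fat value was above the middle of the low-fat mice, but low-fat replicate 10, at 2.24, exceeded 8 of them. The standardised difference of Psmb4 was 1.52 (95% interval 0.50 to 2.51, adjusted p = 0.0616). It passed without low-fat replicate 10 (2.07, adjusted p = 0.0174) or without high-fat replicate 3 (1.69, adjusted p = 0.0432). The second probe set of Psmb4, with a mean score of 9.73, stood at only 0.24 (limma adjusted p = 0.853 over all probe sets).

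Among the catalytic subunits, Psmb5, the chymotrypsin-like subunit, ran from -0.58 to 1.92 in high-fat mice (median 1.17) and from -2.11 to 1.68 in low-fat mice (median 0.01). Its standardised difference was 1.11 (95% interval 0.15 to 2.05, adjusted p = 0.189). Psmb6, the caspase-like subunit, ran from -0.68 to 1.70 in high-fat mice (median 0.78) and from -2.30 to 1.54 in low-fat mice (median 0.05). Its difference was 0.77 (-0.15 to 1.67, adjusted p = 0.407). Psmb7, the trypsin-like subunit, ran from -1.13 to 1.75 in high-fat mice (median 0.17) and from -2.05 to 1.29 in low-fat mice (median 0.39), a difference of 0.35 (-0.54 to 1.22, adjusted p = 0.758). The diets overlapped widely in all 3. Psmb1, another structural subunit, stood at 1.33 (adjusted p = 0.110), Psmb3 at 0.79 and Psmb2 at 0.65. After quantile normalisation Psmb5 and Psmb1 passed as higher (1.47 and 1.46), and Psmb6 passed as lower (-1.42). That scaling left some members with tied scores, so these calls are no separate evidence of a change.

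The 3 immune subunits lay below the low-fat mean as deposited and under all 3 other scalings, and 0 passed as deposited. The kept sign says little, since 0 members below the low-fat mean as deposited turned above it under any scaling. Quantile normalisation left 28.5% of all genes above it, and median centring 5.01%. Psmb8, the inducible counterpart of Psmb5, had values in high-fat mice from -2.36 to 0.92 with a median of -0.67, and in low-fat mice from -1.90 to 1.09 with a median of 0.09. Its standardised difference was -0.71 (95% interval -1.61 to 0.20, adjusted p = 0.447), and its second probe set stood at -1.26 (adjusted p = 0.169 over all probe sets). It passed as lower only after median centring (-1.02, adjusted p = 0.0351), where 83% of all genes were called. Psmb9, the counterpart of Psmb6, ran from -1.40 to 0.93 in high-fat mice (median -0.97) and from -1.76 to 2.03 in low-fat mice (median -0.18), a difference of -0.62 (-1.51 to 0.29, adjusted p = 0.524). Psmb10, the counterpart of Psmb7, ran from -2.05 to 1.2 in high-fat mice (median -0.73) and from -1.35 to 0.96 in low-fat mice (median 0.20), a difference of -0.52 (-1.41 to 0.38, adjusted p = 0.604). For each of these genes 3 of 10 high-fat mice exceeded the low-fat median. The intervals of all 3 include 0.

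Within a mouse, each immune subunit can be set against the constitutive subunit whose place it takes. Psmb8 minus Psmb5 had a median of -2.05 in high-fat mice (range -3.68 to 1.18) and 0.05 in low-fat mice (range -3.15 to 2.50), and 8 of 10 high-fat mice lay below the low-fat median. Psmb9 minus Psmb6 had a median of -1.48 in high-fat mice (range -2.96 to 1.61) and -0.43 in low-fat mice (range -3.15 to 3.05), with 9 high-fat mice below the low-fat median. Psmb10 minus Psmb7 had a median of -1.20 in high-fat mice (range -2.87 to 2.33) and -0.13 in low-fat mice (range -2.03 to 3.01), with 8 below. The ranges overlapped for all 3 pairs, and these differences were not tested. They are those of the scores as deposited. Compared by standardised differences, Psmb8 lay below Psmb5 after quantile normalisation (-0.35 against 1.47) and after median centring (-1.02 against -0.84). Psmb9 lay above Psmb6 under both (-1.27 against -1.42, and -0.84 against -1.05), and so did Psmb10 above Psmb7 (-0.16 against -0.58, and -0.91 against -1.05). Median centring moves a gene with a larger SD less in these units. The SDs within diets were 0.000288 for Psmb8 and 1.84e-05 for Psmb5, 0.000416 for Psmb9 and 1.22e-05 for Psmb6, and 0.000211 for Psmb10 and 3.34e-05 for Psmb7.

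**Figure D2:**
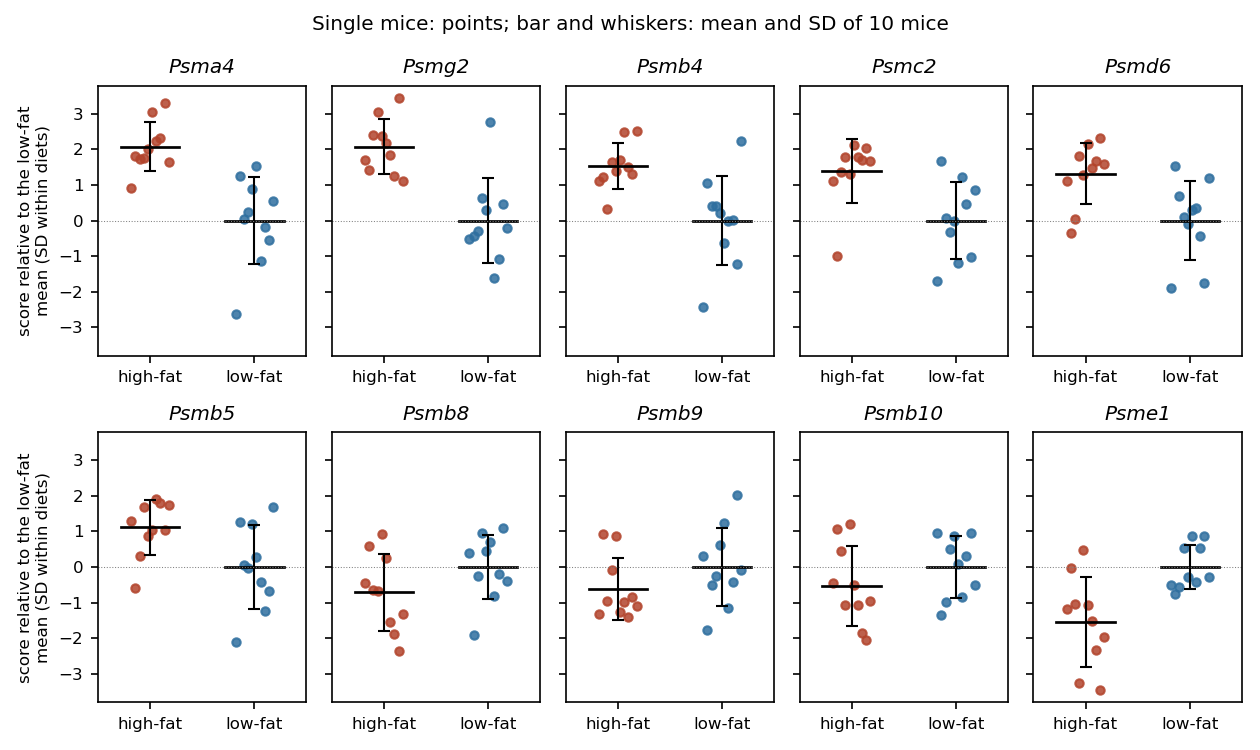
Values of single mice for 10 proteasome genes, high-fat mice on the left and low-fat mice on the right of each panel. The vertical axis is the distance from the low-fat mean in units of the SD within diets; points are mice, and the bar and whiskers are the mean and SD of 10 mice. For Psma4, 9 high-fat mice lie above every low-fat mouse, and for Psme1, 8 high-fat mice lie below every low-fat mouse. The sign of Psma4 turned after median centring. That of Psme1 turned under no scaling tried, but nor did that of any other member below the low-fat mean as deposited.

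In the base, 5 of the 6 ATPase genes and the 3 non-ATPase genes lay above the low-fat mean as deposited and 0 passed; after quantile normalisation 2 of 5 ATPase and 2 of 3 non-ATPase genes did, and after median centring 0 of 6 and 1 of 3. Psmc2, an ATPase of the unfolding ring, had values in high-fat mice from -1.003 to 2.11 with a median of 1.70, and in low-fat mice from -1.70 to 1.67 with a median of 0.02. The lowest high-fat value was that of replicate 2, and 6 high-fat mice lay above every low-fat mouse. Psmc2 had a standardised difference of 1.39 (95% interval 0.39 to 2.36, adjusted p = 0.0881), and without high-fat replicate 2 it passed (2.00, adjusted p = 0.0180). Its other probe sets stood at 1.47 and, for one with scores below the median, 1.16. Psmc1, another ATPase, ran from -1.11 to 1.94 in high-fat mice (median 0.73) and from -2.26 to 1.11 in low-fat mice (median 0.01), and its difference was 0.58 (-0.33 to 1.47, adjusted p = 0.559). Psmc6 (1.12), Psmc3 (1.00) and Psmc5 (0.81) lay between these. Psmc4 was the exception at -0.32 (-1.19 to 0.57), and its second probe set stood at 0.92 (adjusted p = 0.327).

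Psmd1 and Psmd2 are the large scaffolds of the base that hold ubiquitin receptors and a deubiquitinase. Psmd2 ran from -0.37 to 2.27 in high-fat mice (median 1.2) and from -2.70 to 1.11 in low-fat mice (median 0.25). Its standardised difference was 1.2 (95% interval 0.23 to 2.15, adjusted p = 0.147). Psmd1 ran from -0.73 to 1.80 in high-fat mice (median 0.98) and from -2.94 to 1.35 in low-fat mice (median 0.22), a difference of 0.84 (-0.09 to 1.74, adjusted p = 0.352). Psmd4, a ubiquitin receptor, stood at 0.85. In Psmd1 and Psmd2 the lowest low-fat mouse was replicate 1, and the bulk of the diets overlapped.

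All 8 lid genes lay above the low-fat mean as deposited (median 0.81) and 0 passed; quantile normalisation left 2 of 7 there and median centring 1 of 8. Psmd6 ran from -0.35 to 2.33 in high-fat mice (median 1.54) and from -1.90 to 1.53 in low-fat mice (median 0.20), and 5 high-fat mice lay above every low-fat mouse. Its standardised difference was 1.31 (95% interval 0.32 to 2.27, adjusted p = 0.109), but its second probe set stood at 0.08. Psmd14, the deubiquitinase that cuts ubiquitin chains from substrates, stood at 1.09 (0.13 to 2.02, adjusted p = 0.196) and Psmd12 at 1.08. The lowest lid gene was Psmd7, the partner of Psmd14, at 0.46. Psmd11, a lid subunit, stood at 0.89 as deposited. It had 8 probe sets. Those next by mean score stood at 0.08, 0.18 and 0.26, and the others from -0.19 to 0.94. After quantile normalisation Psmd11 passed as lower (-4.02, adjusted p = 3.52e-05). That scaling left some members with tied scores, so this call cannot be read as a change in the other direction.

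Of the 3 activators and the inhibitor measured, 1 lay above the low-fat mean as deposited and 0 of 4 under quantile normalisation or median centring. Psme1 encodes a subunit of the interferon-inducible activator that opens the core. Its values in high-fat mice ran from -3.46 to 0.47 with a median of -1.34, and in low-fat mice from -0.75 to 0.88 with a median of -0.29. Of the high-fat mice 8 lay below every low-fat mouse, and only 2 exceeded the low-fat median. Its SD within the diet was 0.000143 in the high-fat mice and 7.08e-05 in the low-fat mice, in the deposited score. The standardised difference of Psme1 was -1.53 (95% interval -2.53 to -0.51, adjusted p = 0.0588). It passed as lower without high-fat replicate 2 (-1.79, adjusted p = 0.0341) or 5 (-1.97, adjusted p = 0.0215), with array weights (adjusted p = 0.0456), and under 2 of the 3 other scalings. These were centring on standardised values and median centring, where 7.39% and 83% of all genes were called. The probe set for Psme2, its partner subunit, carried the symbols of 2 genes and was not used here. Psme3, a nuclear activator (0.34), Psme4, an activator linked to histone breakdown (-0.07), and Psmf1, an inhibitor of the core (-0.30), had intervals that include 0.

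Among the 4 core assembly chaperones Psmg2 rose and the others did not pass. Psmg2, which pairs with Psmg1 to guide the alpha ring, lies on chromosome 18. Its values in high-fat mice ran from 1.11 to 3.44 with a median of 2.02, and in low-fat mice from -1.61 to 2.78 with a median of -0.26. Of the low-fat mice 9 lay below every high-fat mouse, and low-fat replicate 6 lay within the high-fat range. The standardised difference of Psmg2 was 2.08 (95% interval 0.95 to 3.17, adjusted p = 0.0118), and without low-fat replicate 6 it was 3.20 (adjusted p = 0.000997). Another of its probe sets also passed (2.40, adjusted p = 0.0062 over all probe sets), and the last, with a mean of 6.22 below the median score, stood at 0.12. The call was lost after quantile normalisation (-0.14, adjusted p = 0.874) and after median centring (-0.82, adjusted p = 0.0950), with the sign turned in both. Psmg1, the partner of Psmg2, stood at -0.09 (-0.96 to 0.79), Psmg3 at 0.37 and Psmg4 at -0.46.

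Of the base assembly chaperones, Psmd5 ran from -1.57 to 1.69 in high-fat mice (median 0.74) and from -2.06 to 1.58 in low-fat mice (median 0.05), a difference of 0.55 (95% interval -0.35 to 1.44, adjusted p = 0.581). Psmd9 stood at 0.31 and Psmd10 at -0.27. Psma8, a testis form of an alpha subunit, and Psmb11, a thymus form of a beta subunit, had mean scores below the median of all scores. Their differences were 0.30 and 0.07.

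The 47 members had 100 probe sets in all, of which 3 passed over all 45037 probe sets, all as higher: the probe set of Psma4 and 2 of Psmg2. Over all probe sets 1.11% passed as higher and 2.32% in all. Of the 26 genes with several probe sets, 15 had all of them on the same side of the low-fat mean. Among the 35 other probe sets with a mean above the median score, 30 went the same way as the one used, and among the 18 below the median, 10 did. The 5 exceptions above the median score were probe sets of Psma6 (-0.38), Psmc4 (0.92), Psmc6 (-0.09), Psmd13 (-0.40) and Psme4 (0.74).

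**Figure D3:**
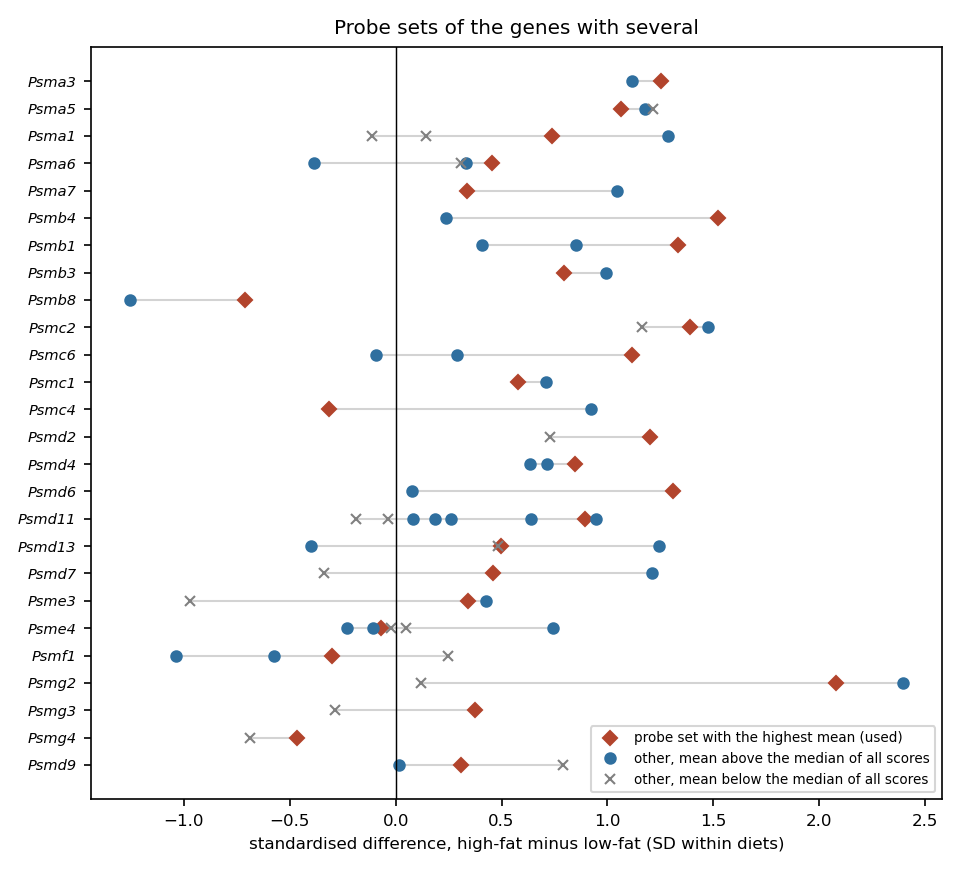
Standardised difference (high-fat minus low-fat, in SD within diets) of every probe set of the 26 genes with several. Diamonds are the probe sets used, circles the others with a mean above the median of all scores, and crosses those below it. Both brighter probe sets of Psmg2 lie above 2, while the 2 of Psmb4 and of Psmd6 lie far apart; signs are those of the scores as deposited, and with median centring only 4 of the 47 genes lay above 0.

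Mice of the same diet differed widely in the constitutive genes. Averaged over the 31 constitutive core, base and lid genes, high-fat mice ran from -0.45 (replicate 2) to 1.59 (replicate 6) with a median of 1.18, and low-fat mice from -1.89 (replicate 1) to 1.31 (replicate 2) with a median of 0.08. The low-fat median was exceeded by 9 high-fat mice, and every low-fat mouse by only 1. Averaged over the immune subunits, high-fat mice ran from -1.75 (replicate 9) to 1.00 with a median of -0.68, and low-fat mice from -1.67 to 1.36 (replicate 9) with a median of 0.15. High-fat replicate 2, the lowest high-fat mouse for the constitutive genes, had 0.60, 0.93 and 1.08 for Psmb8, Psmb9 and Psmb10, above the low-fat mean in all 3. Low-fat replicate 2, the highest low-fat mouse for the constitutive genes, had -1.90, -1.76 and -1.35 in the same order.

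**Figure D4:**
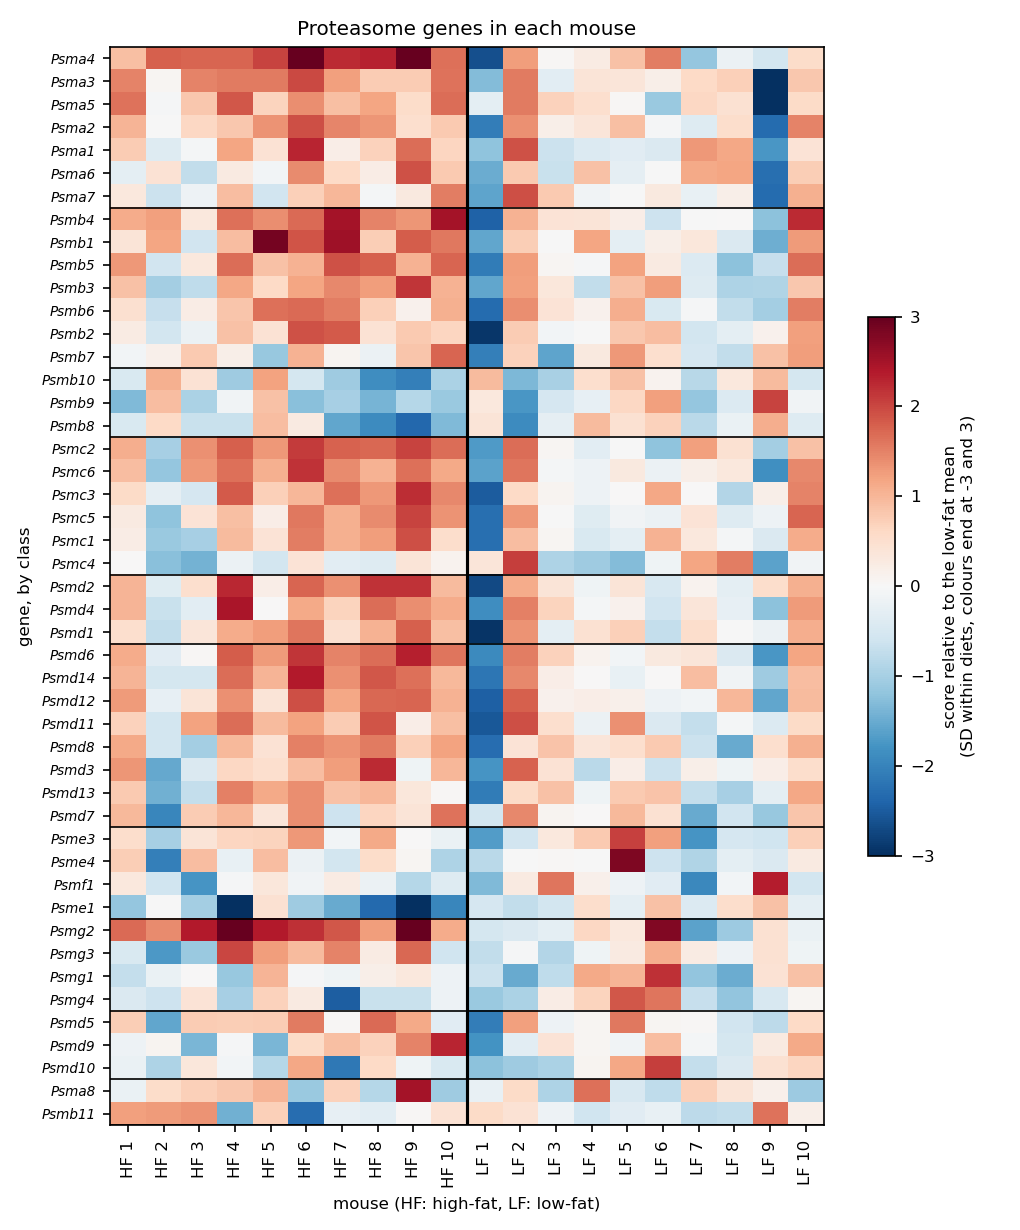
Values of the 47 proteasome genes (rows, by class) in the 20 mice (columns, high-fat left and low-fat right), as distances from the low-fat mean in SD within diets, red above and blue below. Low-fat replicate 1 is blue over most constitutive genes. High-fat replicate 2 is pale or blue over most of them, but red for Psma4 (1.80), Psmb4 (1.22) and Psmb1 (1.18). The 3 immune subunits are mostly blue in high-fat replicates 7 to 10. Colours show the scores as deposited, before any scaling that turned signs.

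Genes that work beside the proteasome were read from lists chosen with earlier results of these data known. Of 10 measured proteasome factors outside the Psm symbols, 1 rose and 0 fell, and 8 lay above the low-fat mean as deposited, against 4 of 9 after quantile normalisation and, after median centring, 2 of 10. The gene that rose was Zfand2a, a stress-inducible protein that binds the proteasome (1.82, 95% interval 0.74 to 2.85, adjusted p = 0.0257), with high-fat mice from 0.46 to 3.66 and low-fat mice from -1.83 to 1.5. The call of Zfand2a was lost after quantile normalisation (0.13) and with the replicate block (adjusted p = 0.0571), and after median centring it passed at 1.33. The proteasome-bound deubiquitinases stood apart without passing, Usp14 at 1.34 (adjusted p = 0.0994) and Uchl5 at -1.50 (adjusted p = 0.0644). Of 8 genes of the Vcp complex, which pulls ubiquitin-tagged proteins from membranes and hands them on, 2 rose, and 6 lay above the low-fat mean as deposited, against 0 of 7 after quantile normalisation and, after median centring, 1 of 8. Vcp stood at 1.75 (0.69 to 2.77, adjusted p = 0.0316) and Ubxn4, which binds Vcp at the endoplasmic reticulum, at 2.64 (1.40 to 3.85, adjusted p = 0.00225). Their other probe sets did not pass by limma over all probe sets. That of Vcp stood at 0.64 (adjusted p = 0.537), and those of Ubxn4 at 1.54 (adjusted p = 0.0723) and 0.67 (adjusted p = 0.515). Vcp turned to -0.04 after median centring. Ubxn4 lost its call there (0.62, adjusted p = 0.191) and turned to -1.32 after quantile normalisation (adjusted p = 0.0631). Vcp missed the threshold with 7 of the 20 arrays omitted singly (highest adjusted p = 0.0576, without high-fat replicate 6). The call of Vcp was also lost with the replicate block (adjusted p = 0.106). Of 5 measured genes of ubiquitin supply and shuttling 0 passed, the nearest being the shuttle Rad23b (1.42, adjusted p = 0.0807) and then Ubqln1 (0.45, adjusted p = 0.673).

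Of 10 genes that control proteasome transcription 0 passed. Nfe2l1 stood at 0.25 (95% interval -0.63 to 1.13) and Nfe2l2 at -0.21 (-1.08 to 0.67). The smallest adjusted p-values of that list were those of Mafk, a partner of Nfe2l1, at 0.98 (adjusted p = 0.260) and of Nfyb, a subunit of NF-Y, at -0.71 (adjusted p = 0.446). These are transcript scores and do not measure the proteins.

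Beside the immune subunits, all 9 measured genes of class I antigen processing lay below the low-fat mean as deposited, and 1 fell. They also lay below it after either centring, but median centring left only 5.01% of all genes above it. After quantile normalisation 3 of the 6 that could be fitted lay above it. H2-K1, a class I heavy chain, had values in high-fat mice from -3.27 to -0.83 with a median of -2.28, and in low-fat mice from -1.96 to 1.92 with a median of 0.08. Its standardised difference was -2.15 (95% interval -3.25 to -1.01, adjusted p = 0.0149), read from a probe set with a cross-hybridising suffix. Its other probe sets, with the same kind of suffix, stood at -0.84, -1.52 and -1.07, and none of these passed. H2-K1 kept its sign after both kinds of centring and could not be fitted after quantile normalisation, and its call was lost with the replicate block (adjusted p = 0.0767). Tapbp, which loads peptides onto class I molecules, stood at -1.46 (adjusted p = 0.0728). Tap1, whose promoter window overlaps that of Psmb9, stood at -0.40, and Tap2 at -0.61. Of 6 leukocyte markers measured 0 passed and 3 lay above the low-fat mean, and their summed score ran from 41.8298 to 41.8309 in high-fat mice and from 41.8298 to 41.8305 in low-fat mice. Of 7 Kupffer cell markers 0 passed and 3 lay above the low-fat mean, with sums from 65.3912 to 65.3966 in high-fat mice and from 65.3915 to 65.3951 in low-fat mice. The scores have no zero, 2 of the leukocyte markers lay below the median score, and the part of these cells in the immune subunit values was not tested. The hepatocyte markers Alb, Ttr, Apoa1 and Cps1 had scores above 13. Of 6 hepatocyte markers 0 passed, and 2 lay above and 4 below the low-fat mean. Not passing does not show that they were unchanged. Ttr stood at -3.12 (95% interval -4.43 to -1.76, limma adjusted p = 0.224), with high-fat mice from -3.81 to -2.09 and low-fat mice from -1.66 to 2.41. Apoa1 stood at 1.35 (0.35 to 2.31, adjusted p = 0.719). Their SDs within diets were only 5.02e-07 and 4.33e-07 in the deposited score. Of 5 endothelial markers 0 passed, but 4 lay above the low-fat mean as deposited with a median of 0.64, close to the 0.65 of the proteasome genes. After quantile normalisation 2 of these 5 lay above it, and with median centring 0 did. Their summed score ran from 43.38345 to 43.38375 in high-fat mice and from 43.3832 to 43.3838 in low-fat mice, and their part in the proteasome values was not tested. Of 5 stellate, 4 bile duct and 2 erythroid markers 0 passed, and 3, 1 and 1 lay above the low-fat mean as deposited.

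The sign of most proteasome genes differed between scalings of the arrays. Centring each array on the standardised values of all genes left 37 of 47 members above the low-fat mean with a median of 0.61, and then Psma4, Psmg2, Psmb4 and Psmc2 passed as higher and Psme1 as lower, among 7.39% of all genes. Quantile normalisation moved the median of all genes to -0.41 and that of the members to -0.31, with 2 members passing as higher and 3 as lower, among 8.59% of genes. Median centring moved the median of all genes to -1.29 and that of the members to -0.82, with 0 members passing as higher and 17 as lower, among 83% of genes. The members' median lay above that of all genes under each of the 4 scalings. After median centring this cannot be read apart from the SDs. That scaling shifts all genes of an array by the same score, so a gene with a larger SD moves less in SD units. The diets' array medians differed by 7.33e-05, so only a deposited difference above that could stay positive. Those above it were Psma5 (0.000248), Psmd4 (0.000146), Psmd9 (0.000139) and Psmd14 (8.37e-05), while Psma4 had 3.04e-05. The 4 of 47 thus restates the size of deposited differences and is no separate evidence on direction. The median SD within diets was 3.47e-05 in the members and 1.30e-05 over all genes.

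**Figure D5:**
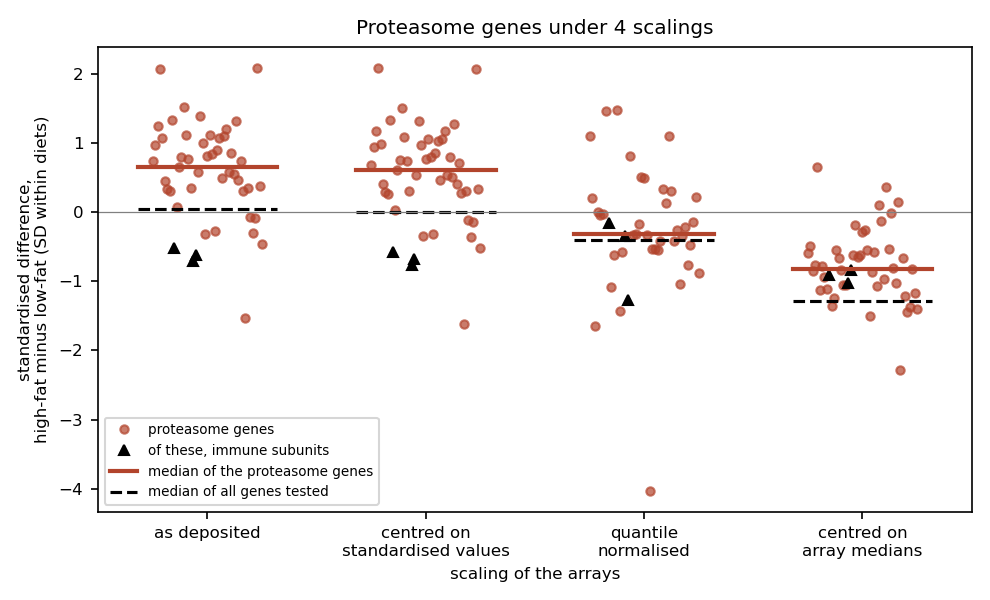
Standardised difference (high-fat minus low-fat, in SD within diets) of each proteasome gene under 4 scalings of the arrays. Circles are genes, triangles the 3 immune subunits, solid lines the members' median and dashed lines the median of all genes tested. The members' median is 0.65 as deposited and -0.82 after median centring, where that of all genes is -1.29. Median centring moves genes with a larger SD less in these units, and the median SD of the members is above that of all genes.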

How the data were processed

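Liver RNA of 20 mice was labelled with a 3′-end kit and read on Affymetrix arrays, per the labels' protocols, 1 array per mouse. The authors deposited a score for each of 45037 probe sets and 64 control probe sets; the summarisation and normalisation of probes are not given in the sources used here, and the depth of an array has no count. The number of arrays limits the precision. Of 45037 probe sets that are not controls, 44238 had an SD over all arrays below 0.001, so a difference in score is no log2 fold change. Platform annotation gave 34945 probe sets 1 symbol, 932 several, and 9160 are unnamed here; 18032 of 18193 genes matched the GRCm38.p6 gene table. No column belonged to another sample.

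The high-fat and low-fat arrays were fitted in R 4.3.3 by limma 3.58.1 with lmFit, then eBayes. Tests were two-sided, without covariates or a filter on low values, and were adjusted by Benjamini-Hochberg over all genes. Intervals came from the noncentral t distribution. The fit was checked on simulated data. Members described in detail were those past the threshold, Psma4, Psmb5, Psmc1, Psmd1, the catalytic and immune subunits, and the largest difference of each class; list genes were those past the threshold or with the 2 smallest adjusted p-values. Members and lists were chosen with earlier results of these data known. Replicates are separate mice by their labels. Alternatives were other scalings, filters, variance models, probe set choices, covariates, tests and arrays left out.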

Additional observations from a re-analysis of the deposited data

Results flagged for a closer look

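For each member and diet (94 groups of 10 mice) the gap between the most extreme mouse and its neighbour was set against the range; 10 groups exceeded the 95% critical value of Dixon, where chance alone would give about 1 in 20. Low-fat replicate 1 was low for Psmb2 (gap over range 0.57), Psmd2 (0.586), Psmc1 (0.538), Psmd1 (0.515) and Psmc5 (0.471), and without it the standardised differences were 0.46, 1.18, 0.38, 0.72 and 0.65, none past the threshold with it or without it. High-fat replicate 2 was low for Psmc2 (0.675), which passed without it (2.00, adjusted p = 0.0180), and for Psmc6 (0.626), which did not (1.62, adjusted p = 0.0557). Low-fat replicate 6 was high for Psmg2 (0.491), and without it the difference was 3.20. Low-fat replicate 5 was high for Psme4 (0.68), without which it stood at 0.33, and high-fat replicate 7 was low for Psmg4 (0.467), without which it stood at -0.27.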

How the results depend on the processing

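Scaling changed most. After quantile normalisation 1488 genes passed (144 higher and 1344 lower) and 12 members lay above the low-fat mean, 2 members passing as higher and 3 as lower (median -0.31). Only 17325 genes kept more than 1 value over the arrays, and 6 members, with a single value, could not be fitted. Psma2 and Psmd6 took the same difference (1.095) and Psma6 exactly 0, as tied scores can give. Calls and turned signs after this scaling can rest on ties and cannot be read as changes in the other direction. Of the 41 fitted, 18 above the low-fat mean as deposited were then below it. Among genes past the threshold before or after, those with a turned sign were Psmg2 (-0.14), Psma5 (-1.64), Psmb6 (-1.42), Psmd11 (-4.02) and Ubxn4 (-1.32). After median centring 15098 genes passed (215 higher and 14883 lower), with 0 members passing as higher, 17 as lower and 4 above the low-fat mean (median -0.82). There 33 of the 37 members above the low-fat mean as deposited were below it. Among genes past the threshold before or after, those with a turned sign were Psma4 (-0.77), Psma6 (-1.12), Psmb1 (-1.11), Psmb11 (-1.35), Psmb2 (-1.24), Psmb6 (-1.05), Psmb7 (-1.05), Psmd13 (-1.06), Psmd3 (-0.97), Psmd8 (-1.02), Psmg2 (-0.82), Psmg3 (-1.17) and Vcp (-0.038). The difference in array medians was 7.33e-05, while the median SD within diets was 3.47e-05 in the members and 1.30e-05 over all genes. A member with a deposited difference below 7.33e-05 had to lie below the low-fat mean after median centring. Centring on standardised values gave 1344 genes, 4 members higher and 1 lower. The upper part of genes by mean gave 3 members higher, Psmb4 among them, and 1 lower, Psme1, among 8.3% of genes. Array weights gave 2 higher and 1 lower, Psme1, among 3.8% of all genes. Averaging each gene over its probe sets gave 3 higher, Psmc2 among them, with 3.83% of all genes called. The poly-A covariate gave 411 genes. A threshold of 0.01 left 212 genes and 0 members higher. For the settings of scaling, weights, covariate and filter the cause was not tested. With the replicate block 421 genes passed against 635 without it, and Psma4 and Psmg2 kept their calls. The replicate numbers do not pair the mice: same-numbered mice correlated from -0.16 to 0.26, 2 of 10 pairs over 0.1, and 1 of 10 high-fat mice was closest to its own number. Leaving out 1 array gave 498 to 720 genes (2.74% to 3.96% of all). Of the members 2 to 4 were higher (4 without high-fat replicate 3) and 0 to 1 lower (without high-fat replicate 2 or 5). Above the low-fat mean lay 36 to 39 members, against 51.7% to 53.4% of all genes, and the members' median was 0.46 to 0.90. Psma4 and Psmg2 passed in all 20 fits. Leaving out low-fat replicate 1 and high-fat replicate 2 together, chosen after seeing the data, gave 3 higher and 1 lower, with 3.29% of all genes called. The variance trend, the unmoderated model and the rank sum test left 2 members higher and 0 lower. So did a table without probe sets ending in _a_at, _s_at or _x_at. Of all genes these settings called 3.4%, 3.28%, 3.13% and 3.1%, in that order.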
